A study of Mus musculus with 59 samples.

Results

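The genes described here code for the subunits and named assembly factors of the respiratory chain and ATP synthase and for the proteins of the mitochondrial ribosome. They were chosen by name: symbols that begin with Nduf, Uqcr, Cox4 to Cox8 or Atp5, the genes Sdha to Sdhd, and Mrpl or Mrps followed by a number, with pseudogene names left out. The peak tables name a gene for each peak, and each gene was represented in each mark by its peak of the highest mean over all 27 libraries. By this rule 130 of 15805 genes were found in the H3K4me3 table and 134 of 16763 in the H3K27ac table, 137 genes in either and 127 in both.

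The study profiled both histone marks by ultra-low-input native ChIP-seq in pieces of snap-frozen uterine tissue, labelled endometrial, from C57/B6 mice of 4 age groups. The groups were young (9 to 11 weeks, n = 7), aged 1 (28 to 36 weeks, n = 4), aged 2 (42 to 48 weeks, n = 6) and aged 3 (54 to 65 weeks, n = 10), and the labels name no allele or agent for any group. Each animal gave 1 library for each mark, so n counts animals. The labels name no sorting of cells, and fewer cells of a type and less of a mark per cell cannot be told apart in it.

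The respiratory chain passes electrons from NADH (complex I) and succinate (complex II) through complexes III and IV to oxygen, and the proton gradient this builds drives ATP synthase (complex V). Most subunits are coded in the nucleus, and a few core subunits are coded in mitochondrial DNA and made by the mitochondrial ribosome, whose proteins are all nuclear. H3K4me3 marks active promoters and H3K27ac marks active promoters and enhancers, so genes that nearly every cell uses, such as these, carry both marks at their starts.

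Values are log2 RPKM (reads scaled to peak length and library size) after quantile normalization of the 27 libraries per mark, and differences between groups are log2 fold changes on that scale. A call is an adjusted p under 0.05 by limma, corrected over all tested peaks of the mark. Total reads, recovered from the steps between low values, ran from 6.84 to 48.3 M for H3K4me3 (median 10.0) and from 7.60 to 16.9 M for H3K27ac (median 11.2), with 36.3 to 75.8% and 32.3 to 48.7% of reads in peaks. The median gene described here had 483.5 reads in its H3K4me3 peak and 118 in its H3K27ac peak, which alone give a counting SD of 0.066 and 0.13 on the log2 scale.

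Few of these genes differed between the oldest and the youngest animals. H3K4me3 rose at 13 and fell at 5 of the 130 genes between aged 3 and young; over all genes, 10.3% of the highest peaks rose and 17% fell, and over all tested peaks 14.2% rose and 16.4% fell. H3K27ac rose at 2 and fell at 14 of the 134 genes, against 9.75% and 18.3% over the highest peaks of all genes and 14.4% and 14.9% over all tested peaks. The share called was 13.8% for H3K4me3 and 11.9% for H3K27ac, against 27.2% of all genes in H3K4me3. In either mark 32 genes were called, and only Mrpl2 and Ndufv3 were called in both.

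Cell markers moved in the same comparison. H3K4me3 rose at 17 and fell at 0 of 20 epithelium markers with a peak, and rose at 0 and fell at 13 of 15 stroma markers; H3K27ac rose at 11 and fell at 0 of 20, and rose at 0 and fell at 14 of 16. The mean H3K4me3 level of the epithelium markers minus that of the stroma markers ran from -1.51 to -0.39 in the young (mean -0.98 ± 0.42, SD, n = 7) and from -1.41 to 2.23 in aged 3 animals (0.89 ± 1.21, n = 10). In H3K27ac the difference ran from -0.97 to 0.34 in the young and from -1.06 to 1.67 in aged 3 animals. Each mark was then fitted with the difference from its own values as a covariate. With it, limma called 0 of the genes described here in either mark. Over all peaks, 123 rose and 44 fell in H3K4me3 and 33 rose and 8 fell in H3K27ac. Of the 18 called H3K4me3 genes 13 kept their direction with the covariate, and Cox6a1, Cox5a, Mrpl2, Mrpl33 and Mrps28 did not. All 16 called H3K27ac genes kept their direction, but not all kept their size. H3K27ac went from 0.93 to 0.17 at Ndufv3, from -0.43 to -0.09 at Ndufaf1 and from -0.52 to -0.11 at Cox6c. It did not shrink at Uqcrc2 (1.44 and 1.45), Atp5h (-0.45 and -0.49) or Mrpl37 (-0.35 and -0.44). The part of cell make-up in the calls was not tested beyond this. Smooth muscle markers fell at 5 of 15 and rose at 0 in H3K4me3 (5 of 13 fell and 1 rose in H3K27ac), leukocyte markers rose at 6 and fell at 1 of 17 (2 and 2 of 14), endothelium markers rose at 3 and fell at 2 of 13 (2 and 3 of 10), and pericyte markers fell at 3 and rose at 0 of 4 (2 of 5 fell and 0 rose). The labelled tissue carried peaks at epithelium markers and at stroma markers alike, although no peak was named for the stroma genes Hoxa10, Hoxa11 and Hand2.

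Levels of both marks at these genes were high within the tables. The median gene had an H3K4me3 level of 4.33, against 3.53 over all genes, and lay at the 86.9th percentile; 124 of 130 genes lay above the median of all genes. For H3K27ac the median was 2.18 against 1.72, the median percentile 76.4, and 113 of 134 genes lay above the median of all genes. RPKM divides reads by peak width, and the widths were alike, with a median of 2116 bases at these genes and 2207 at all genes for H3K4me3. The position of the peaks was less alike. Among genes with a RefSeq start, the H3K4me3 peak held it or lay within 1 kb at 89.2% of these genes and 75.5% of all genes. For H3K27ac the shares were 84.3% and 60.1%, and the part of position in the levels was not tested.

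**Figure D1:**
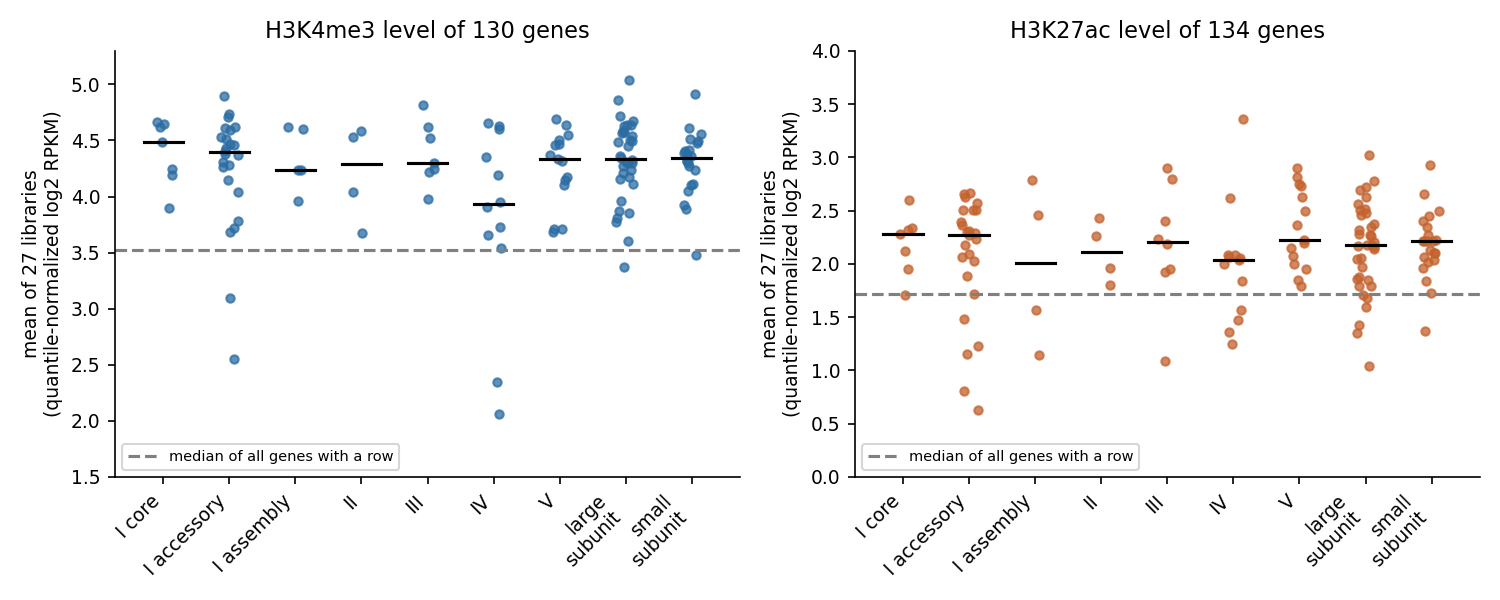
Mean level of each gene over 27 libraries (y axis, quantile-normalized log2 RPKM) by complex or ribosomal subunit (x axis), for H3K4me3 (left, 130 genes) and H3K27ac (right, 134 genes). Each point is a gene, black bars are class medians and the dashed line is the median of all genes, at 3.53 and 1.72; the lowest points belong to Cox6b2, Cox7a1 and Ndufa4l2 in H3K4me3.

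The highest H3K4me3 level of each complex stood at Ndufb7 in complex I (4.90), Sdhd in complex II (4.59), Uqcr10 in complex III (4.81), Cox7c in complex IV (4.65) and Atp5l in ATP synthase (4.69). In the ribosome it stood at Mrpl47 in the large subunit (5.04) and Mrps12 in the small one (4.92). The peaks of Sdhd, Uqcr10, Mrpl47 and Mrps12 also hold the start of a neighbouring coding gene (Timm8b, Zmat5, Ndufb5 and Sars2), and their reads cannot be split between the neighbours. Of these 7 genes, only Uqcr10 was called in H3K4me3, and Atp5l and Mrps12 were called in H3K27ac. At the bottom of the H3K4me3 range stood Cox6b2 (2.06), Cox7a1 (2.35) and Ndufa4l2 (2.55), which are limited to some tissues; Cox7c carried the highest H3K27ac (3.36, percentile 99.9) and Ndufa4l2 the lowest (0.63, percentile 4.43).

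Animals of a group differed little at these genes. The median SD within groups was 0.12 for H3K4me3, against 0.21 over all genes, and 0.22 against 0.32 for H3K27ac. Between aged 3 and young, the median size of the difference, whatever its sign, was 0.07 in H3K4me3 against 0.16 over all genes, and 0.16 against 0.26 in H3K27ac. No gene differed by over 2-fold in H3K4me3 and 1 did in H3K27ac, where 5.98% and 5.42% of all genes did. These genes also lie above most genes in level, and the part of level in their small spread was not tested.

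In 122 of 130 genes the H3K4me3 peak held a RefSeq start of the gene itself, and in 118 of 134 the H3K27ac peak did; 31 of the H3K4me3 peaks also held the start of another coding gene. RefSeq lists 174 coding genes of these families. Of those without an H3K4me3 row of their own name, 32 have their start inside a peak named for another gene, 3 have it in no peak and 9 have no start in the promoter table used; for H3K27ac the numbers are 30, 3 and 7. Atp5j shares its peak with Gabpa, whose product is part of a factor known for binding promoters of respiratory genes, and Ndufb5 lies in the peak of Mrpl47.

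Promoters of respiratory genes are known for sites of NRF1, of the ETS-family factor GABPA and of YY1. In the 127 promoters (116 genes, RefSeq, GRCm38.p6) with the start in an H3K4me3 peak, taken from 250 bases before to 50 after the start and read on both strands, the NRF1 consensus stood in 20.5%, against 9.02% of all 15903 promoters with the start in such a peak. The ETS letters CCGGAAG stood in 27.6% against 15.9%, and the YY1 letters AAGATGGC in 15.7% against 3.79%. The ETS and YY1 letters can overlap by AAG, and 44.1% of the promoters held an NRF1 or ETS match, against 23.1%. The GC box GGGCGG was less frequent at 47.2% against 63.7%, CCAAT stood in 44.1% against 36.5% and TATAAA in 9.45% against 6.55%; the median GC content was 58.0% against 61.3%. These are shares of exact letter matches, with no test and no statement on binding.

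Promoters of 6 genes that were called are shown from 5′ to 3′ with the letters of the NRF1, ETS and YY1 motifs on either strand in capitals, each of 300 bases with its start 50 bases from the right end. Cox6a1 (chr5:115348909-115349208, minus strand) holds 2 NRF1 matches and 1 ETS match, Atp5h (chr11:115419870-115420169, minus strand) 1 of each, Mrps22 (chr9:98601630-98601929, minus strand) 1 ETS match and Atp5l (chr9:44920693-44920992, minus strand) 2 ETS matches. Ndufs7 (chr10:80249199-80249498, plus strand) holds 1 YY1 match, 24 bases after its start, and Cox6b2 (chr7:4753045-4753344, minus strand), a tissue-limited gene, holds none of the 3 motifs. The promoters of Cox7c and Mrpl47, the genes of highest H3K4me3 in complex IV and the large subunit, hold none of them either.
Cox6a1: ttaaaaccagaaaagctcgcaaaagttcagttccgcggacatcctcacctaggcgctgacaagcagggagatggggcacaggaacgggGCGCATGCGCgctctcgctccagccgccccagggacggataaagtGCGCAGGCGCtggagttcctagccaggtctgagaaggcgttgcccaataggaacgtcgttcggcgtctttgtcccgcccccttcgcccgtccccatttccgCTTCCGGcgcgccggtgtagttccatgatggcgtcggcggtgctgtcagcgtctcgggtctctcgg
Atp5h: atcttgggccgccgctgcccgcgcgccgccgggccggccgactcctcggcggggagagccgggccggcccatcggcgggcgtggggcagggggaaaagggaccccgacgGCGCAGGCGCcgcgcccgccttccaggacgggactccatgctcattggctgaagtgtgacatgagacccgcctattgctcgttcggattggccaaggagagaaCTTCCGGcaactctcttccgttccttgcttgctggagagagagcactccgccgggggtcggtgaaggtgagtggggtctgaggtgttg
Mrps22: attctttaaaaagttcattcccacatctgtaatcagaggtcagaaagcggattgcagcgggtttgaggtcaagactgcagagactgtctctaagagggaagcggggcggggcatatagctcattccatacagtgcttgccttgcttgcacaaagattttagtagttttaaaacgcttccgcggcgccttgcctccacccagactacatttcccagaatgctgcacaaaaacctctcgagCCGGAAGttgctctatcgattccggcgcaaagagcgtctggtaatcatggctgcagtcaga
Atp5l: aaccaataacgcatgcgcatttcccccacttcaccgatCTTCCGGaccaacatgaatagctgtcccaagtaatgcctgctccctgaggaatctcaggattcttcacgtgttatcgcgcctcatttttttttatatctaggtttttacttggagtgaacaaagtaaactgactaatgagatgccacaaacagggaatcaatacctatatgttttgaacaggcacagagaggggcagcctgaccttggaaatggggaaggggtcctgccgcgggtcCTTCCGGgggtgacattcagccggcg
Ndufs7: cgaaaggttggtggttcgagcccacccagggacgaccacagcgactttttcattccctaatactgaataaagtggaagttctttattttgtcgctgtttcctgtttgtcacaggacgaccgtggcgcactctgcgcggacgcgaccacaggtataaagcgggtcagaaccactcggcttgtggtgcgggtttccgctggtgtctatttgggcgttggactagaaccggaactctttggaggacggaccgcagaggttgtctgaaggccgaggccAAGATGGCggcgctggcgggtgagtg
Cox6b2: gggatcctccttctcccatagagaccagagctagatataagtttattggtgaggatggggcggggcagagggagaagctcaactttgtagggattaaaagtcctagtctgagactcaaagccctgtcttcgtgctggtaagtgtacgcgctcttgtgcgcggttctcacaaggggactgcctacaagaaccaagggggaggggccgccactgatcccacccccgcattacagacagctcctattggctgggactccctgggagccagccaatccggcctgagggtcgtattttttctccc
H3K4me3 rose at Cox6a1, Mrps22 and Ndufs7 and fell at Cox6b2, and H3K27ac fell at Atp5h and Atp5l, so genes with an NRF1 or ETS match stand among both those that rose in 1 mark and those that fell in the other.

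Complex I, which takes electrons from NADH, had 36 genes with an H3K4me3 row, assembly factors included; 3 rose and 1 fell, with a median change of 0.05. Of its 36 H3K27ac genes 1 rose and 4 fell, with a median of -0.18 and 32 of 36 below 0. Over all genes the median H3K27ac change was -0.12, and 35.4% of the highest peaks lay above 0. Ndufs7, a core iron-sulfur subunit near the quinone site, had H3K4me3 values of 3.92, 4.07 and 4.21 (lowest, median, highest) in the young, 4.17, 4.04, 4.10 and 4.10 in aged 1, 4.20, 4.21 and 4.36 in aged 2 and 4.04, 4.34 and 4.43 in aged 3 animals. The groups overlapped, with 7 of 10 aged 3 libraries above every young one, and H3K4me3 rose by 0.21 ± 0.06 (SE; adjusted p = 0.0071). Ndufa4, named for complex I and since assigned to complex IV, rose by 0.20 ± 0.06 in H3K4me3 (adjusted p = 0.019), with 5 of 10 aged 3 libraries above every young one. Its peak also holds the start of Phf14. By its name Ndufa4 is counted here among the complex I genes and not with complex IV.

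Ndufv3, an accessory subunit of the NADH-binding module, was called in both marks, at a peak that does not hold its start. The H3K4me3 peak, chr17:31529495-31530011 (GRCm38), overlaps the annotated gene 9380 bases from the nearest RefSeq start and held a median of 51 reads. Its H3K4me3 values were 2.17, 2.37 and 3.62 in the young, 2.42, 3.16 and 3.71 in aged 2 and 2.83, 3.60 and 4.08 in aged 3 animals, with 2.74, 2.81, 2.84 and 2.51 in aged 1. All 10 aged 3 libraries lay above the young mean and 5 above every young library. H3K4me3 rose by 0.83 ± 0.19 (adjusted p = 0.0030). H3K27ac in the peak at the same place (32 reads) ran from 0.81 to 1.35 in the young (median 1.07) and from 0.36 to 2.66 in aged 3 animals (median 2.01), with 9 of 10 aged 3 libraries above every young one and the remaining one, replicate 10, below them all; it rose by 0.93 ± 0.25 (adjusted p = 0.0094).

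H3K27ac fell at 4 genes of complex I. At Ndufaf1, an assembly factor, values were 2.13, 2.63 and 3.08 in the young and 1.63, 2.15 and 2.51 in aged 3 animals (2.73, 2.60, 2.57 and 2.71 in aged 1, and 2.43, 2.58 and 3.02 in aged 2). All 10 aged 3 libraries lay below the young mean, 5 of them below every young library, and the mark fell by 0.43 on the log2 scale (SE 0.13; adjusted p = 0.015). The core subunits Ndufs8 and Ndufv2, which carry iron-sulfur clusters, and the accessory subunit Ndufs5 fell by 0.39, 0.33 and 0.35 (adjusted p = 0.020, 0.029 and 0.019). Ndufaf2, an assembly factor, fell by 0.15 in H3K4me3 (SE 0.05; adjusted p = 0.012; young 4.54, 4.70 and 4.75, aged 3 4.42, 4.51 and 4.65), but its peak holds the start of Smim15 and lies 112540 bases from its own start. At the H3K4me3 peak nearest to its RefSeq start, Ndufaf2 was not called (limma adjusted p = 0.79).

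Complex II, succinate dehydrogenase, had 4 genes and no call in either mark; its differences ran from 0.0049 (Sdhb) to 0.12 (Sdhd) in H3K4me3 and from -0.28 (Sdhc) to 0.02 (Sdha) in H3K27ac. Complex III had 1 call in each mark. Uqcr10, a small subunit, had H3K4me3 values of 4.68, 4.72 and 4.87 in the young, 4.66, 4.75 and 4.89 in aged 2 and 4.82, 4.88 and 4.98 in aged 3 animals, with 4.83, 4.70, 4.85 and 4.86 in aged 1. All 10 aged 3 libraries lay above the young mean and 6 above every young library, and H3K4me3 rose by 0.14 ± 0.04 (adjusted p = 0.0072), the smallest change among the 13 that rose. H3K27ac at Uqcr10 differed by -0.20 ± 0.09 (adjusted p = 0.098).

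Uqcrc2, a core protein of complex III, showed the only change over 2-fold, in an H3K27ac peak with no H3K4me3 row of that name. The peak, chr7:120654245-120655949, overlaps the annotated gene, lies 19056 bases from the nearest RefSeq start of Uqcrc2 and held a median of 41 reads. Its values were -0.25, 0.08 and 1.68 in the young, -0.16, 0.92, -0.26 and 0.86 in aged 1, 0.67, 1.04 and 1.90 in aged 2 and 1.00, 1.97 and 2.24 in aged 3 animals. The 10 aged 3 libraries all lay above the young mean, 8 of them above every young library, and H3K27ac rose by 1.44 ± 0.26 (adjusted p = 0.0013). The aged 2 value was 0.77 ± 0.29 above the young (adjusted p = 0.48).

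Complex IV, cytochrome c oxidase, had 12 H3K4me3 genes, of which 3 rose and 1 fell. Cox6a1 and Cox8a, the widely used forms of their subunits, and Cox5a rose by 0.26, 0.26 and 0.25 (adjusted p = 0.016, 0.035 and 0.038). Of 10 aged 3 libraries 6, 6 and 5 lay above every young one. With 1 library left out at a time, Cox6a1 was called in 17 of 17 fits, Cox8a in 8 and Cox5a in 7. Cox6b2, known as the testis form of subunit 6b, had values of 2.13, 2.29 and 2.86 in the young, 2.28, 2.10, 2.05 and 1.80 in aged 1, 1.68, 2.17 and 2.63 in aged 2 and 1.52, 1.78 and 2.07 in aged 3 animals. It was the only one of the 130 genes whose young and aged 3 libraries did not overlap (0.335% of all genes did not overlap in that direction and 0.525% in the other). H3K4me3 at Cox6b2 fell by 0.59 on the log2 scale (SE 0.15; adjusted p = 0.0055), from a low level of 83 reads in the median library.

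**Figure D2:**
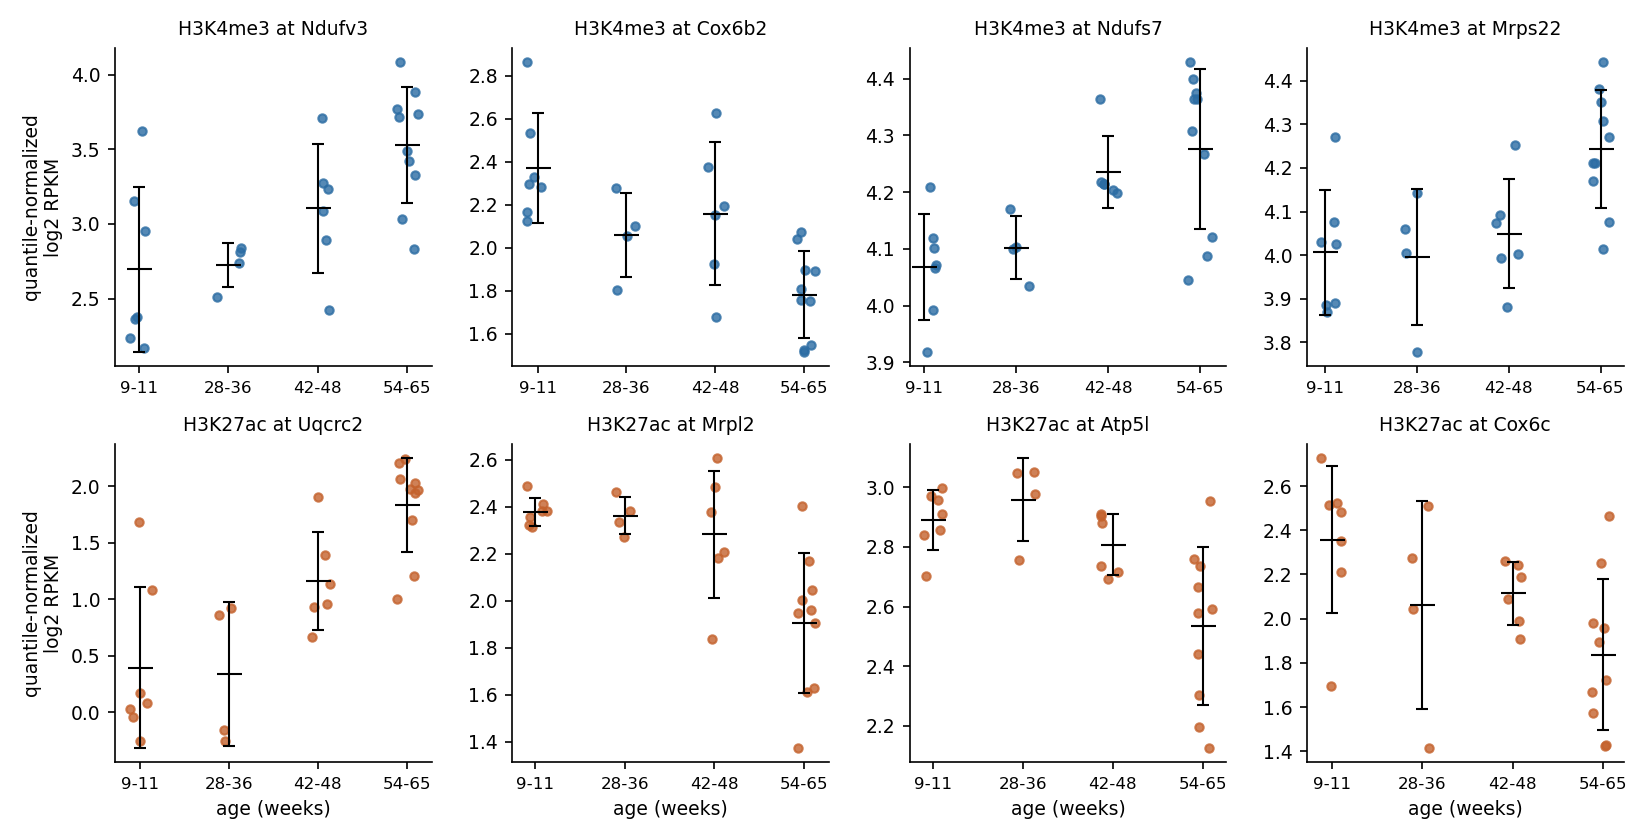
Values of single libraries (points, quantile-normalized log2 RPKM) by age in weeks for 4 genes in H3K4me3 (top) and 4 in H3K27ac (bottom), with group mean and SD in black (n = 7, 4, 6 and 10); the y axes do not start at 0. At Cox6b2 all 10 libraries of 54 to 65 weeks lie below every young library; in the other 7 panels the groups overlap.

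The other tissue-limited forms with a row gave no call. Cox7a1, the form of heart and muscle, had H3K4me3 values of 1.90, 2.18 and 2.74 in the young and 1.97, 2.60 and 2.96 in aged 3 animals, a difference of 0.28 ± 0.16 (adjusted p = 0.18), and 0.01 ± 0.21 in H3K27ac. Ndufa4l2 differed by 0.16 ± 0.11 in H3K4me3 and -0.03 ± 0.22 in H3K27ac, at peaks beyond its start. Cox4i2 and Cox8b, with H3K27ac rows alone whose peaks lie off their starts, differed by 0.12 ± 0.14 and 0.09 ± 0.17.

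In H3K27ac complex IV had 1 call among 13 genes, at Cox6c. Its values were 1.69, 2.48 and 2.73 in the young, 2.51, 1.42, 2.27 and 2.05 in aged 1, 1.91, 2.14 and 2.26 in aged 2 and 1.43, 1.81 and 2.46 in aged 3 animals. The groups overlapped, with 4 of 10 aged 3 libraries below every young one, and H3K27ac fell by 0.52 on the log2 scale (SE 0.15; adjusted p = 0.016). Complex IV was also the class with the highest median H3K27ac change, 0.01, with 7 of 13 genes above 0. Cox7c, whose level was the highest of all, differed by 0.18 ± 0.07 (adjusted p = 0.055; 7 of 10 aged 3 libraries above every young one).

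ATP synthase had 15 genes in each mark. Of these, 1 rose in H3K4me3 and 3 fell in H3K27ac, where 13 of 15 lay below 0 (35.4% of all genes lay above it). Atp5k, the e subunit, rose by 0.20 ± 0.07 in H3K4me3 (adjusted p = 0.029). Atp5l, the g subunit, had H3K27ac values of 2.70, 2.91 and 3.00 in the young, 3.05, 2.76, 2.98 and 3.05 in aged 1, 2.69, 2.81 and 2.91 in aged 2 and 2.13, 2.59 and 2.95 in aged 3 animals. Of the aged 3 libraries 7 lay below every young one, and H3K27ac fell by 0.36 on the log2 scale (SE 0.09; adjusted p = 0.0083), while its H3K4me3 differed by 0.01 ± 0.04 (adjusted p = 0.80). Atp5h, the d subunit of the peripheral stalk, had 1.79, 2.03 and 2.22 in the young and 0.99, 1.64 and 1.89 in aged 3 animals, and Atp5g2, which codes for the c subunit of the rotor, had 2.50, 2.68 and 2.82 and 1.91, 2.31 and 2.75. They fell by 0.45 and 0.35 (SE 0.13 and 0.10; adjusted p = 0.015 and 0.016), with 7 and 8 of 10 aged 3 libraries below every young one; the peak of Atp5h also holds the start of Kctd2.

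Among the 56 mitoribosome genes with an H3K4me3 row 5 rose and 3 fell. Mrps25 had values of 4.15, 4.22 and 4.52 in the young and 4.23, 4.54 and 4.61 in aged 3 animals and Mrps22 had 3.87, 4.03 and 4.27 and 4.01, 4.24 and 4.44, both small-subunit proteins; 8 and 4 of 10 aged 3 libraries lay above every young one. Both rose by 0.24 (SE 0.06 and 0.07; adjusted p = 0.0077 and 0.011). Mrpl39 of the large subunit, with 4.14, 4.18 and 4.37 in the young and 4.15, 4.40 and 4.54 in aged 3 animals, rose by 0.17 ± 0.05 (adjusted p = 0.014), and Mrpl24 and Mrps6 rose by 0.17 and 0.34 (adjusted p = 0.032 and 0.027); the peak of Mrps6 also holds the start of Slc5a3.

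H3K4me3 fell at Mrpl2, Mrpl33 and Mrps28. At Mrpl33, a large-subunit protein, values were 3.88, 4.07 and 4.31 in the young and 3.63, 3.82 and 4.24 in aged 3 animals, a fall of 0.24 on the log2 scale (SE 0.08; adjusted p = 0.026; 6 of 10 below every young library). Mrps28 fell by 0.17 (SE 0.07), with 4.39, 4.50 and 4.56 in the young and 4.09, 4.32 and 4.59 in aged 3 animals, at an adjusted p of 0.0499 that lies at the threshold. With the epithelium-minus-stroma difference as a covariate, the values at Mrpl2, Mrpl33 and Mrps28 were 0.02, 0.0017 and 0.05, on the other side of 0.

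Mrpl2 fell in both marks, at a peak that holds the start of Cul7, a ubiquitin ligase scaffold, 3585 bases from the start of Mrpl2. H3K4me3 there ran over 3.55, 3.78 and 3.88 in the young and 2.68, 3.52 and 3.75 in aged 3 animals, and fell by 0.35 (SE 0.11; adjusted p = 0.019). H3K27ac ran over 2.31, 2.38 and 2.49 in the young, 2.33, 2.38, 2.46 and 2.27 in aged 1, 1.84, 2.29 and 2.61 in aged 2 and 1.37, 1.96 and 2.40 in aged 3 animals. Of the aged 3 libraries 9 lay below every young one, and H3K27ac fell by 0.47 on the log2 scale (SE 0.12; adjusted p = 0.0062).

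Of 58 mitoribosome genes with an H3K27ac row, 0 rose and 6 fell, and 44 lay below 0 (35.4% of all genes lay above it). Beside Mrpl2 these were Mrps12 and Mrps15 of the small subunit (falls of 0.39 and 0.41) and Mrpl37, Mrpl54 and Mrpl15 of the large one (0.35, 0.30 and 0.30), with adjusted p from 0.019 to 0.0485. With 1 library left out at a time, Mrpl54 was called in 7 of 17 fits and Mrpl15 in 5. Mrps15 was called in 16, and Mrps12 and Mrpl37 in 17. The peaks of Mrps12, Mrpl37 and Mrpl54 also hold the starts of Sars2, Cyb5rl and Apba3. Mrps12, with a median of 3.13 in the young and 2.81 in aged 3 animals, had 7 of 10 aged 3 libraries below every young one. Calls by position of the peak are given as counts, with no test of position. In H3K27ac, of 118 genes whose peak held their own start 0 rose and 13 fell (median -0.16), and of 16 whose peak did not 2 rose and 1 fell (median 0.08), where 14.4% of all tested peaks rose. In H3K4me3, 12 rose and 3 fell of 122 with their own start in the peak, and 1 rose and 2 fell of 8 without it. Genes that were called lay in complexes I, III, IV and V and in both ribosomal subunits, and complex II alone had no call in either mark among 4 genes.

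**Figure D3:**
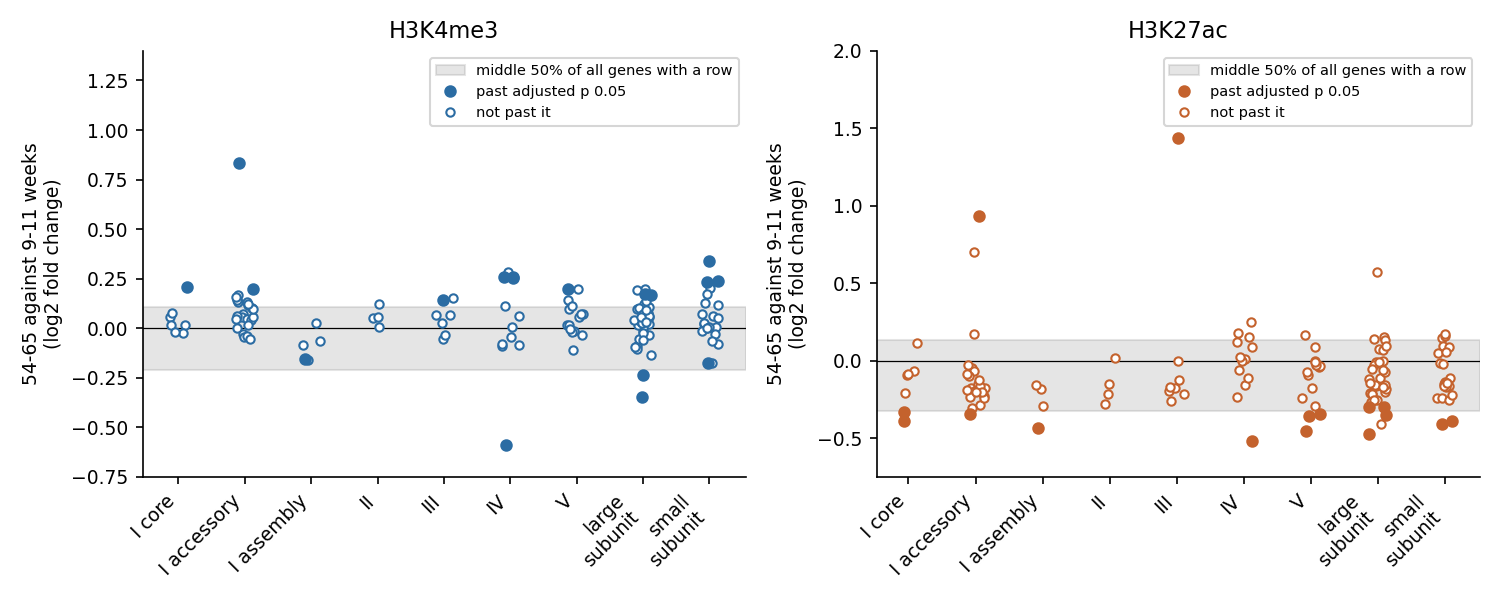
Log2 fold change between 54 to 65 and 9 to 11 weeks (y axis) of each gene by complex or ribosomal subunit (x axis), for H3K4me3 (left) and H3K27ac (right); filled points passed an adjusted p of 0.05 and the grey band holds the middle 50% of all genes. H3K27ac values lie mostly below 0 (105 of 134) and H3K4me3 values mostly above it (90 of 130), and the highest points are Ndufv3 and, in H3K27ac, Uqcrc2. Over all genes, 35.4% of the highest peaks lay above 0 in H3K27ac and 42.9% in H3K4me3.

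The sign of the common shift depended on the scaling. The median H3K4me3 change of the 130 genes was 0.05 after quantile normalization and 0.07 after centring each library on its median, but -0.07 on the values as deposited, on which the median of all tested peaks itself stood at -0.14; relative to all tested peaks it was 0.07 under all 3 scalings. The median H3K27ac change was -0.15, -0.04 and -0.13, which relative to all tested peaks is -0.09 after quantile normalization and 0.0033 under both others. Calls moved with it: 15 of the 18 H3K4me3 calls held after centring and 2 (Cox6b2 and Ndufv3) on deposited values, with 12 genes rising and 3 falling after centring and 1 and 1 on deposited values. Of the 16 H3K27ac calls 6 held after centring (Ndufaf1, Uqcrc2, Atp5h, Cox6c, Ndufv3 and Mrpl2) and 9 on deposited values, with 5 rising and 4 falling after centring and 2 and 7 on deposited values. All called genes kept their direction under both other scalings.

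The mean over the 130 genes gave the same picture library by library. After quantile normalization it ran from 4.21 to 4.24 in young and from 4.19 to 4.33 in aged 3 H3K4me3 libraries, with 6 of 10 aged 3 libraries above every young one and 1 below. For H3K27ac it ran from 2.06 to 2.21 in the young and from 1.94 to 2.22 in aged 3 animals, with 6 below every young library and 1 above. On deposited values the groups overlapped nearly in full, with 0 aged 3 libraries above every young one and 1 below in each mark. Over the highest peaks of all genes, the quantile-normalized H3K27ac mean ran from 1.65 to 1.72 in young and from 1.56 to 1.74 in aged 3 libraries. The H3K4me3 mean over all genes ran from 3.18 to 3.23 in young and from 3.11 to 3.21 in aged 3 libraries.

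**Figure D4:**
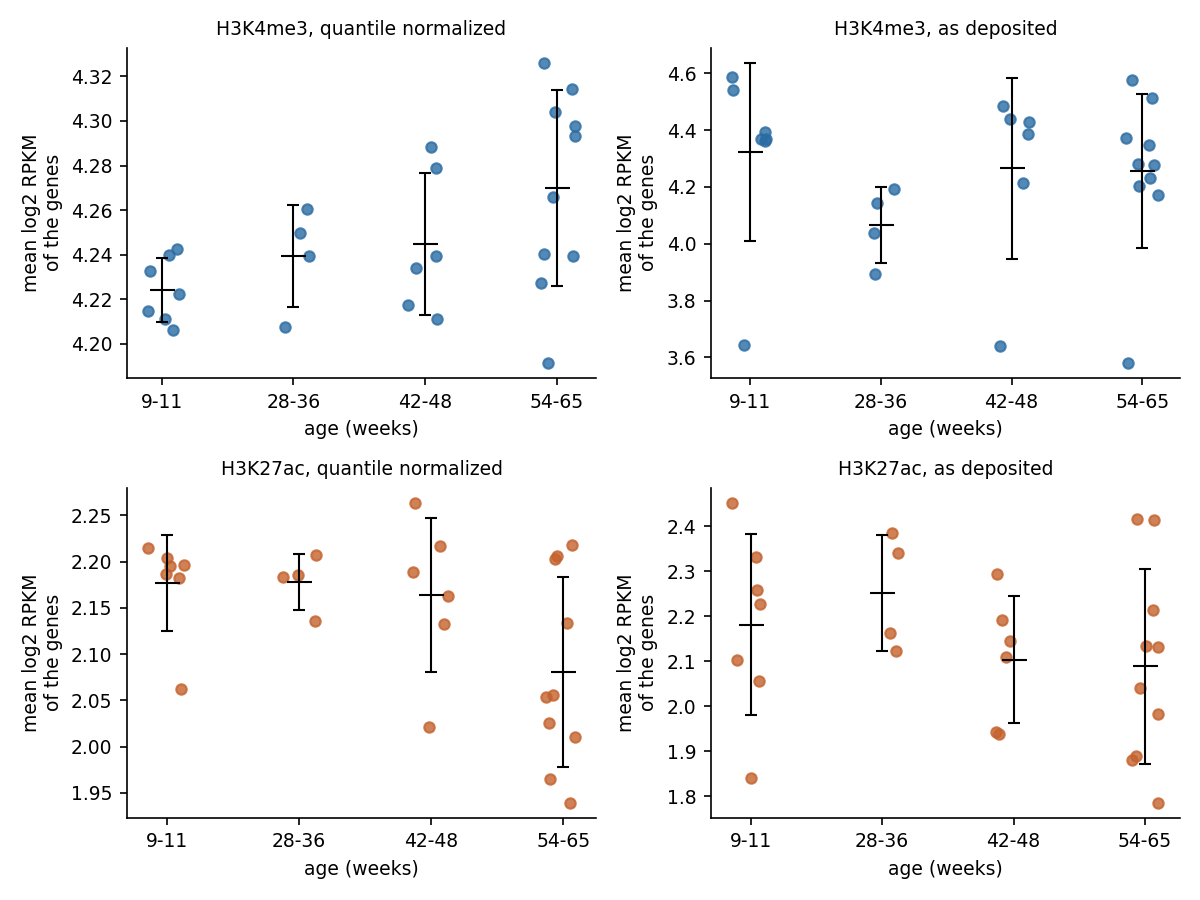
Mean log2 RPKM over the 130 (H3K4me3, top) or 134 (H3K27ac, bottom) genes in each library (points) by age in weeks, after quantile normalization (left) and as deposited (right), with group mean and SD in black; the y axes do not start at 0. Aged 3 libraries span 4.19 to 4.33 and 1.94 to 2.22 on the left, and 3.58 to 4.58 and 1.79 to 2.42 as deposited.

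Batch-like labels and single libraries also bore on the counts. The library code in the labels opens with a digit whose meaning is not given, and digits 1 (3 libraries per mark) and 6 (4 libraries per mark) occur in aged groups alone; only digit 6 was left out as an alternative. With the digit as a factor, 3 genes rose and 0 fell in H3K4me3 and 1 rose and 2 fell in H3K27ac; without digit 6, 1 rose and 1 fell in each mark. Young animals mostly carry mouse numbers under 100 (6 of 7) and aged 3 animals mostly numbers over 200 (3 of 10 are under 100); with the number series as a factor, 6 rose and 2 fell in H3K4me3 and 2 rose and 1 fell in H3K27ac, and among animals with numbers under 100 alone 0 genes were called in either mark. All called genes kept their direction in those 4 fits. Calls over all peaks are not set beside these counts, so a loss of calls here cannot be told from a loss over all peaks. The fit on numbers under 100 held 6 young and 3 aged 3 animals, which limits what it can detect. Leaving out single libraries gave 9 to 22 rising and 3 to 6 falling genes in H3K4me3 and 2 to 6 rising and 10 to 27 falling in H3K27ac. Without aged 3 replicate 10 the numbers rising were 22 (H3K4me3) and 6 (H3K27ac), without aged 3 replicate 3 the H3K27ac numbers were 5 and 27, and without young replicate 2, young replicate 6, aged 3 replicate 7 or aged 3 replicate 8 the number falling in H3K4me3 was 3. Without aged 3 replicate 4, 24 H3K27ac genes were called. Replicates 3, 4 and 10 of aged 3 had epithelium-minus-stroma values of -0.30, -0.40 and -1.41 in H3K4me3, where the aged 3 median was 1.23. In H3K27ac they had 0.07, -0.11 and -1.06, where the aged 3 median was 1.10. The part of these values in the counts was not tested. Without the 3 H3K4me3 libraries with under 40% of reads in peaks, 9 genes rose and 4 fell.

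The size of the change of the marks relative to each other depended on the scaling, while its median stayed above 0. After quantile normalization, of the 127 genes with both marks, 71 had higher H3K4me3 and lower H3K27ac in aged 3 than in young animals, 33 were lower in both, 19 higher in both and 4 the reverse. The within-animal difference of H3K4me3 minus H3K27ac had a median change of 0.17 at these genes and 0.10 over all 13753 genes with both marks, and was above 0 at 114 of 127 genes (89.8%) against 66.3% of all genes. On deposited values, where the median change was below 0 in both marks (-0.07 in H3K4me3 and -0.13 in H3K27ac), the medians of the difference were 0.06 and 0.01, and after centring 0.09 and 0.05.

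Tested gene by gene, that difference rose at 7 of the 127 genes and fell at 0; over all genes 4.54% rose and 2.39% fell. It rose by 0.49 ± 0.13 at Mrps22 (adjusted p = 0.022), by 0.39 ± 0.11 at Mrpl37 (adjusted p = 0.029) and by 0.37 ± 0.10 at Atp5l (adjusted p = 0.031), and by 0.29 to 0.40 at Ndufs7, Uqcr10, Cox7a2l and Ndufb11 (adjusted p from 0.035 to 0.045). The number was 0 on deposited values, 1 after centring, 0 with the epithelium-minus-stroma covariate of H3K4me3 and 4 with the marks as separate libraries.

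**Figure D5:**
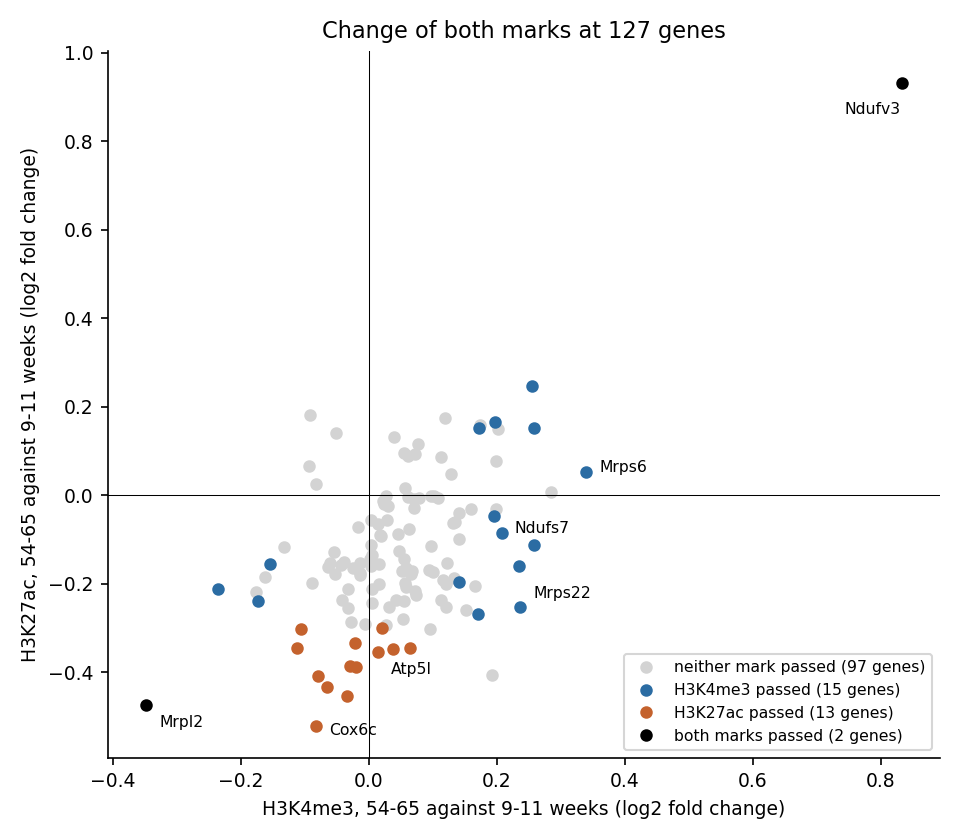
Log2 fold change between 54 to 65 and 9 to 11 weeks in H3K4me3 (x axis) and H3K27ac (y axis) for the 127 genes with both marks, after quantile normalization, coloured by which mark passed an adjusted p of 0.05. Of these genes 71 lie at the lower right, with higher H3K4me3 and lower H3K27ac, and Ndufv3 and Mrpl2 stand apart in opposite corners.

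Intermediate ages gave no call. By limma, 0 of the 130 H3K4me3 and 0 of the 134 H3K27ac genes were called between aged 2 and young (7 and 3 at an unadjusted p under 0.05; 0.217% and 0.011% of all peaks called), between aged 1 and young (1 and 2; 0.00387% and 0%), between aged 2 and aged 1 (1 and 4; 0% and 0%) and between aged 3 and aged 2 (14 and 16; 0.205% and 0%). These comparisons share groups with each other and with the one above, so their values are not independent. The smallest adjusted p between aged 2 and young was 0.48 in each mark, at Ndufs7 in H3K4me3 (0.17 ± 0.06) and at Uqcrc2 in H3K27ac. Between aged 3 and aged 2 it was 0.10 at Mrpl2 in H3K4me3 (-0.36 ± 0.12) and 0.22 at Ndufaf1 in H3K27ac (-0.49 ± 0.13). The groups of 4 and 6 animals limit what these comparisons can detect.

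Lists of other nuclear genes of mitochondria were read in the same comparison. Assembly factors of the complexes with cytochrome c showed 0 calls among 23 genes in H3K4me3 (13 of the 36 listed had no row), and 1 rose and 7 fell among 25 in H3K27ac, where Ttc19, a complex III factor, rose by 1.31 ± 0.27 and Sdhaf4 and Sdhaf2, factors of complex II, fell by 0.48 and 0.47. Factors of mitochondrial translation rose at 2 and fell at 0 of 18 in H3K4me3 (Mtif2 by 0.17 ± 0.05, Tufm by 0.20 ± 0.08) and fell at 5 and rose at 0 of 21 in H3K27ac, among them Mterf3 (a fall of 0.40) and Mtrf1 (a fall of 0.27). Genes of mitochondrial DNA maintenance and transcription rose at 1 and fell at 1 of 14 (Mgme1 by 1.07 ± 0.33, while Polg, the DNA polymerase, fell by 0.29) and fell at 3 and rose at 0 of 15 in H3K27ac, among them Tefm (a fall of 0.37) and Tfb1m (a fall of 0.45).

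Of the nuclear regulators of these genes, 1 of 15 fell in H3K4me3 (Ppara, by 0.31) and 2 of 15 in H3K27ac (Hcfc1 and Gabpb2, by 0.30 and 0.21), and 0 rose. Genes of the tricarboxylic acid cycle rose at 1 and fell at 1 of 17 in H3K4me3 (Idh3a by 0.29 ± 0.09; Ogdh fell by 0.20) and fell at 2 of 18 in H3K27ac (Fh1 and Pdhx, by 0.41 and 0.38). Import genes rose at 1 and fell at 0 of 19 in H3K4me3 (Timm23 by 0.25 ± 0.09) and fell at 1 and rose at 0 of 19 in H3K27ac (Timm22 by 0.34). Of the tissue-limited forms 1 of 3 fell in H3K4me3 (Cox6b2) and 0 of 4 were called in H3K27ac. These counts stand beside the shares of all genes given above and carry no test of the lists.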

How the data were processed

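H3K4me3 and H3K27ac were profiled in 27 animals, with 1 library per mark and animal; 5 input libraries among the 59 samples were not used here. Per the submitters' processing notes, which give no roles or order, build GRCm38 and the tools deepTools 3.5.1, ChIPseeker 1.34.1, Bowtie2, DESeq2, DiffBind 3.8.0 and MACS2 2.2.9.1 were used; other steps are not given in the sources used here. The authors deposited log2 RPKM values, 1 table per mark, over 1 set of peaks for all libraries (25835 and 54362), with a gene named for each peak. Leaving out chromosome Y, 25827 and 54354 peaks were tested.

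Values were quantile normalized within a mark and fitted with limma 3.58.1 (R 4.3.3; 4 group means, moderated with a trend), Benjamini-Hochberg adjusted over all tested peaks of the mark at 0.05; the unequal change of the marks was fitted on their difference within the animal. Tables were made with Python 3.11.15. Read totals were recovered from the value steps, which gave whole reads within 0.05 for 100% of values; no count test was run on them. The code was tested on simulated data with 200 changed peaks. The genes and gene lists were chosen with earlier results of these data known. Genes given by library are, for each mark, the 6 of smallest p in each direction, those called in both marks, tissue-limited forms and the highest H3K4me3 of each class; the remaining called genes were named after their values were seen. Other lists name the 2 genes of smallest p in each direction; 1 result of these lists is not reported here. Starts and promoters are from RefSeq (GRCm38.p6). The alternatives are given in the closing section; those on mouse numbers under 100, reads in peaks and peaks with the gene's own start were chosen after seeing the data.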

Additional observations from a re-analysis of the deposited data

Results flagged for a closer look

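In 16 of 156 groups examined, 1 library stood apart from its group by Dixon's criterion at 95%, and chance gives about 1 in 20. In H3K4me3, Ndufs7 was high in aged 2 replicate 1 (4.36; others 4.20 to 4.22), Mrps25 low in aged 1 replicate 2 (4.22; 4.42 to 4.45) and Mrpl39 high in young replicate 3 (4.37; 4.14 to 4.24). Cox7a1 was low in aged 2 replicate 1 (1.85; 2.23 to 2.44), Cox7c low in aged 2 replicate 3 (4.29; 4.64 to 4.76), Ndufa4l2 high in aged 3 replicate 7 (3.10; 2.46 to 2.80) and Atp5l high in aged 3 replicate 5 (4.88; 4.61 to 4.73).

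In H3K27ac, Ndufv3 stood apart in 3 groups: high in aged 1 replicate 3 (1.28; 0.59 to 0.64), low in aged 2 replicate 2 (0.22; 1.52 to 1.98) and low in aged 3 replicate 10 (0.36; 1.77 to 2.66). Cox4i2 was low in aged 2 replicate 1 (1.22; 1.46 to 1.60) and Ndufb7 high in aged 1 replicate 2 (3.08; 2.67 to 2.70). Cox7c was high in aged 2 replicate 6 (3.52; 3.29 to 3.35) and in aged 3 replicate 8 (3.88; 3.23 to 3.51), and Mrpl47 low in aged 3 replicate 10 (1.43; 2.03 to 2.59). The mean over the 134 genes was low in young replicate 6 (2.06; 2.18 to 2.21). Aged 2 replicate 1 stood apart most often, 3 times.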

How the results depend on the processing

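Counts of called genes between aged 3 and young moved with several settings, and the cause was not tested. Apart from the covariate fits above, calls over all peaks in these other settings are not set beside the counts. The 13 that rose in H3K4me3 became 1 on deposited values, 3 with the code digit fitted, 1 without digit 6, 6 with the mouse number series fitted, and 0 with the epithelium-minus-stroma covariate or among mouse numbers under 100. The 5 that fell became 1, 0, 1, 2, 0 and 0 under those settings, and 3 after centring, with the filter on low values or with peaks holding the gene's own start. The 2 that rose in H3K27ac became 5 after centring, 1 with the digit, 1 without digit 6, and 0 with the covariate, among numbers under 100 or with own-start peaks; the 14 that fell became 7 on deposited values, 4 after centring, 2 with the digit, 1 without digit 6, 1 with the number series, and 0 with the covariate or among numbers under 100. The 7 unequal changes became 0 on deposited values, 1 after centring, 0 with the covariate and 4 with separate libraries and no replicate block. Leaving out 1 library gave 9 to 22 and 3 to 6 in H3K4me3, 2 to 6 and 10 to 27 in H3K27ac, and 0 to 1 falling in H3K4me3 between aged 3 and aged 2 (1 without aged 2 replicate 5, aged 3 replicate 3 or aged 3 replicate 10). With the covariate, H3K4me3 reversed at 5 called genes, Mrps28 (0.052), Mrpl33 (0.0017), Mrpl2 (0.019), Cox6a1 (-0.027) and Cox5a (-0.085). With log2(RPKM + 1), 13 rose and 4 fell, and 3 rose and 15 fell. With the peak nearest to the RefSeq start of each gene, 17 of the 18 H3K4me3 calls held, all but Ndufaf2. All 16 H3K27ac calls held in that setting. The peak was chosen among those named for the gene, 145 peaks for 130 genes in H3K4me3 and 189 for 134 in H3K27ac. A call that held there therefore need not lie at the gene's own start.

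Replicate numbers name different animals, and same-numbered young and aged 3 libraries correlated by -0.226 to 0.242 (H3K4me3) and -0.355 to 0.295 (H3K27ac), each best with its own number in 1 of 7; the numbers do not pair the samples. With the replicate block, 13 rose and 3 fell in H3K4me3, and 4 rose and 12 fell in H3K27ac. A median of 118 reads per H3K27ac peak, and 28 to 41 at Ndufa4l2, Ndufv3 and Uqcrc2, limits the precision there.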
